A study of Rattus norvegicus with 16 samples.

Results

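The genes described here encode subunits of the mitochondrial respiratory chain and of ATP synthase and were measured in rat prefrontal cortex (PFC) immediately after acute footshock (FS). Members were chosen by gene symbol: symbols that begin with Nduf (but not Ndufaf), Uqcr or Atp5, those that begin with Cox followed by 4, 5, 6, 7 or 8, and Sdha, Sdhb, Sdhc, Sdhd and Cycs. In all, 90 such symbols stood alone on a probe set of the array, and 80 of them had a mean over the 16 arrays above 4 on the log2 scale, out of 10423 genes tested. The symbol Cyc1 falls outside the naming rule, and so do the subunits that the mitochondrial genome encodes, which are not analysed here. Of the 80 members, 35 belong to complex I, 4 to complex II, 8 to complex III, 14 to complex IV and 18 to complex V (ATP synthase), and Cycs encodes cytochrome c, the carrier between complexes III and IV.

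The FS group was 8 rats given 1 FS session of 40 min (0.8 mA, with 20 min of actual shock) and killed at its end. They were compared with 8 Control rats, which by the study's methods had stayed in their home cages. All were adult male Sprague-Dawley rats, and the effect of the shocks cannot be told apart from that of the rest of the session. Total RNA from PFC tissue was hybridised to Affymetrix Rat Gene 1.0 ST arrays, 1 array per labelled replicate. The values are RMA-normalised log2 signals, on which a difference of 0.1 is 7.18% and a difference of 0.25 is 18.9%. RMA hides any shift that most genes share, and levels of different probe sets were not compared with each other.

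The respiratory chain passes electrons from NADH (complex I) and succinate (complex II) through ubiquinone, complex III and cytochrome c to oxygen (complex IV), and pumps protons across the inner mitochondrial membrane. ATP synthase uses the returning protons to make ATP. Neurons meet most of their energy demand this way, and the nuclear genes of the subunits are commonly described as controlled together, with binding motifs of NRF1, the ETS factor GABP, YY1 and SP1 in many of their promoters.

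Promoter sequences are shown for 4 members. Ndufs7 and Ndufa2 had the smallest p-values among members with a negative difference, and Atp5mc2 and Atp5me are ATP synthase genes whose windows both hold the exact NRF1 motif and whose differences had opposite signs. Each sequence is the 250 bases before the annotated start from RefSeq (build GRCr8), read 5′ to 3′ on the gene's strand, with capitals on the motifs found in these bases on either strand. The positions are chr7:10110499-10110748 (minus strand) for Ndufs7, chr18:28631885-28632134 (minus) for Ndufa2, chr7:135678219-135678468 (minus) for Atp5mc2 and chr14:1464610-1464859 (plus) for Atp5me.
Ndufs7: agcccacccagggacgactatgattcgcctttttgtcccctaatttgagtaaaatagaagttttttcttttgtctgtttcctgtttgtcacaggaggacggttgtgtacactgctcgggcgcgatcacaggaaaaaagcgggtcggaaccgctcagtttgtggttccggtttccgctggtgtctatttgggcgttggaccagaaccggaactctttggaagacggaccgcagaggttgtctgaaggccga
Ndufa2: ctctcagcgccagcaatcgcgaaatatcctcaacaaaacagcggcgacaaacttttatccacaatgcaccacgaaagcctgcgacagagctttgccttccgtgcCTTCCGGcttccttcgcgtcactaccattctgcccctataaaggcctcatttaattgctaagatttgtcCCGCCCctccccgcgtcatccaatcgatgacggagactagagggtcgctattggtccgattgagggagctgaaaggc
Atp5mc2: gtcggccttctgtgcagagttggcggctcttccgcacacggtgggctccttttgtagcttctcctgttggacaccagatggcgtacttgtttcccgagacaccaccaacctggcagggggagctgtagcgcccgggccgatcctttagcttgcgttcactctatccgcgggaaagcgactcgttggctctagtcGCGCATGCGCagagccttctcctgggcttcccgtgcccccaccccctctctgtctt
Atp5me: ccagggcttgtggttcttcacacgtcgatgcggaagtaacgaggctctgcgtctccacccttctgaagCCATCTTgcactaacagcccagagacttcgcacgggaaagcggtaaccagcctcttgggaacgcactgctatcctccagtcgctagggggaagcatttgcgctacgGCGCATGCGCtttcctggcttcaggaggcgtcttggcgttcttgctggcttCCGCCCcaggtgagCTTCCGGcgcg
The motifs searched, on both strands, were the NRF1 palindrome (the run of 10 capitals in Atp5mc2), a relaxed form of it with any base at the fifth position, CCGGAAG for ETS/GABP, AAGATGG for YY1 and GGGCGG for SP1. The relaxed form holds every exact NRF1 match, and no other motif contains another. Capitals in Ndufa2 mark an ETS/GABP and an SP1 match, and capitals in Atp5mc2 mark NRF1. Atp5me carries a YY1, an NRF1, an SP1 and an ETS/GABP match, and Ndufs7 has none in this stretch.

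Across the member promoters, most of these motifs were more frequent than in promoters of the genes tested. Windows of 300 bases, 250 before and 50 after the start, were given for 70 of the 80 members and for 8606 tested genes. The exact NRF1 motif lay in 5.71% of the member windows and in 1.89% of the windows of tested genes, and its relaxed form in 17.1% and 10.3%. ETS/GABP was found in 28.6% of member windows against 17.2% of tested genes. YY1 was found in 24.3% against 8.66%, and in most members its match included bases after the start, since the share in the 250 bases before it was 5.71% against 4.44%. SP1 was the exception, with 37.1% of member windows against 63.7% of tested genes. Over all 27457 windows of the annotation, the shares were 0.932% for exact NRF1, 4.71% for its relaxed form, 9.22% for ETS/GABP, 7.3% for YY1 and 34.9% for SP1. These are matches of letters and no measure of binding.

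No subunit gene passed the adjusted threshold between FS and Control rats, and most differences were small. With limma, 0 of the 80 members had an adjusted p under 0.05, and the share over all 11352 probe sets tested was 0% as well. The smallest adjusted p of a member was 0.503. Before adjustment, 2 members passed 0.05 with a negative difference, Ndufs7 and Ndufa2, where 5.67% of all tested probe sets did so, and 1 passed with a positive one, Ndufs6-ps1, where 3.65% did (9.32% in either direction). The member counts are near or below that background. No member had FS and Control values that did not overlap, and over all tested probe sets the share was 0.0176% with FS below and 0.044% with FS above.

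Differences of members lay between -0.17 and 0.14, and their sizes were small beside those of other genes. The median size was 0.033 over the 80 members, against 0.067 over all tested probe sets and 0.061 over the 2788 probe sets with means between 7.18 and 8.87, the middle range of the members' own means. The median SE was 0.056 for members, 0.073 for all and 0.068 for probe sets in that middle range. In 70 members (87.5%) the size was under 0.1, against 66.3% of all tested probe sets. The 95% interval of the difference lay within 0.25 on either side of zero in 71 members (88.8%), against 59.7% overall. For these 71 genes, changes beyond -15.9% or 18.9% thus fell outside the interval. In 77 of 80 members the interval included zero.

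In the main fit the share of negative differences among members equalled that of all tested probe sets, but with other scaling it did not. The difference was negative in 46 of 80 members (57.5%), and 57.5% of all tested probe sets were negative too. The median difference was -0.0067 over the members and -0.018 over all. When each array was centred on the median of the tested probe sets, 32 members (40%) were negative against 50.2% of all, and the median over the members was 0.011. In that centred fit 3 members were lower and 5 higher at an unadjusted 0.05, and again 0 passed after adjustment. Of all 11352 tested probe sets, 1082 passed an unadjusted 0.05 in either direction in the same fit. Lower and higher probe sets were not counted apart there, so these member counts have no background by direction. Differences near zero took the other sign with this centring in several named genes, namely Ndufs1, Sdha, Cycs, Cox6b2, Cox6c, Atp5mc1 and Atp5mc3.

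**Figure D1:**
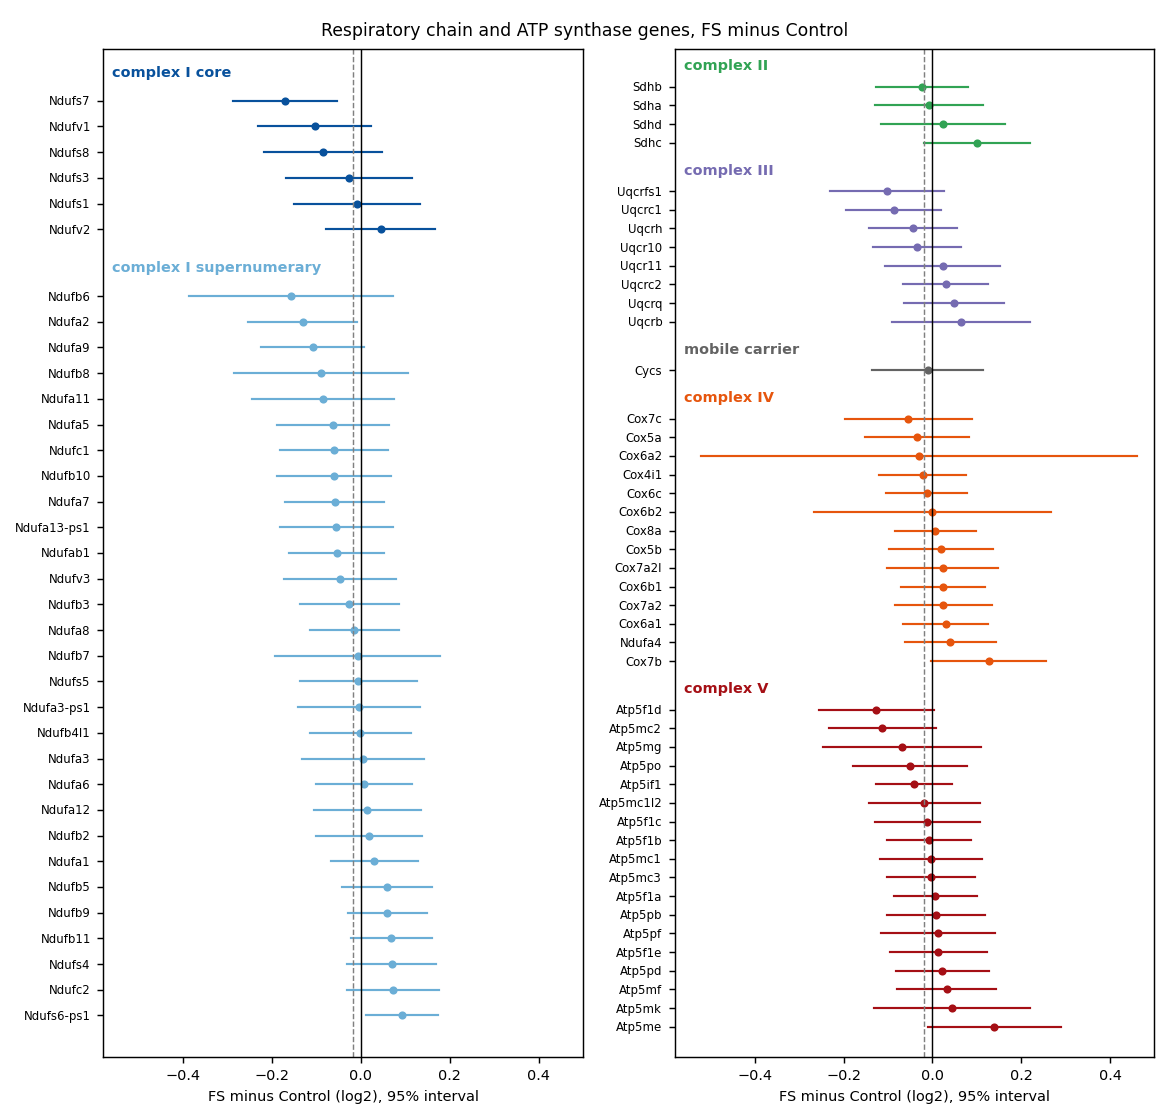
FS minus Control for the 80 subunit genes, by complex, on the log2 scale (horizontal axis), with 95% intervals from limma (8 arrays per group). The solid vertical line is 0, the dashed one the median over all tested probe sets (-0.018). Intervals of 77 genes include 0, and the widest is that of Cox6a2.

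In complex I, the entry point for electrons from NADH, 23 of 35 genes had a negative and 12 a positive difference, with a median of -0.015. The nuclear-encoded core subunits, which carry the flavin and the iron-sulfur clusters, numbered 6 here. Of these, 5 had a negative difference and the median was -0.056. Among the 29 supernumerary subunits, which surround that core, 18 were negative and the median was -0.0078. With centred arrays the negative counts were 4 of 6 and 13 of 29, and the median over complex I was 0.0026.

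Ndufs7, a core subunit that holds the last iron-sulfur cluster before ubiquinone, had the lowest difference of all members. Its log2 values were 8.01 at the lowest, 8.25 at the median and 8.36 at the highest in FS arrays, against 8.27, 8.38 and 8.48 in Control arrays. All 8 FS arrays were below the Control mean, and the groups overlapped. The difference was -0.17 ± 0.056 (SE, n = 8 per group), which puts the FS mean at 88.8% of the Control mean (unadjusted exact two-sided permutation p = 0.00482, adjusted limma p = 0.503).

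Ndufa2, a small supernumerary subunit with a thioredoxin-like fold, ranged in FS arrays between 5.61 and 5.95 with a median of 5.74, and in Control arrays between 5.74 and 6.02 with a median of 5.87. Of the 8 FS arrays, 7 lay under the Control mean, and the groups overlapped widely. The difference was -0.13 ± 0.059 (unadjusted exact permutation p = 0.0361, adjusted limma p = 0.523).

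Ndufs6-ps1 was the member with the steadiest positive difference. The annotation names it a pseudogene of Ndufs6, a subunit of the peripheral arm, and it was expressed at 8.52, 8.57 and 8.67 (lowest, median, highest) in FS arrays and at 8.41, 8.49 and 8.55 in Control arrays. All 8 FS arrays were above the Control mean, and the highest Control values lay above the lowest FS values. The difference was 0.092 ± 0.039 (unadjusted exact permutation p = 0.00233, adjusted limma p = 0.520), and a second probe set of the same name differed by 0.085. Whether its probes also read transcripts of the parent gene was not tested, nor was it for the other members annotated as pseudogenes, Ndufa13-ps1 and Ndufa3-ps1, so these values are uncertain.

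Other complex I genes had smaller or less steady differences. Ndufv1, which binds the flavin that takes electrons from NADH, differed by -0.10 ± 0.060 (exact permutation p = 0.0932, n = 8 per group). Its partner Ndufv2, an iron-sulfur subunit, differed by 0.044 ± 0.058, and the largest iron-sulfur subunit, Ndufs1, by -0.0084 ± 0.067. In the membrane arm, Ndufb6 had a difference of -0.16 but an SE of 0.11, with FS values between 6.24 and 7.07 and Control values between 6.53 and 7.13. Ndufc2, also of the membrane arm, differed by 0.073 ± 0.049. A second Ndufc2 probe set gave -0.076, and Ndufc2 was the only one of 12 members with several tested probe sets whose probe sets differed in sign.

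**Figure D2:**
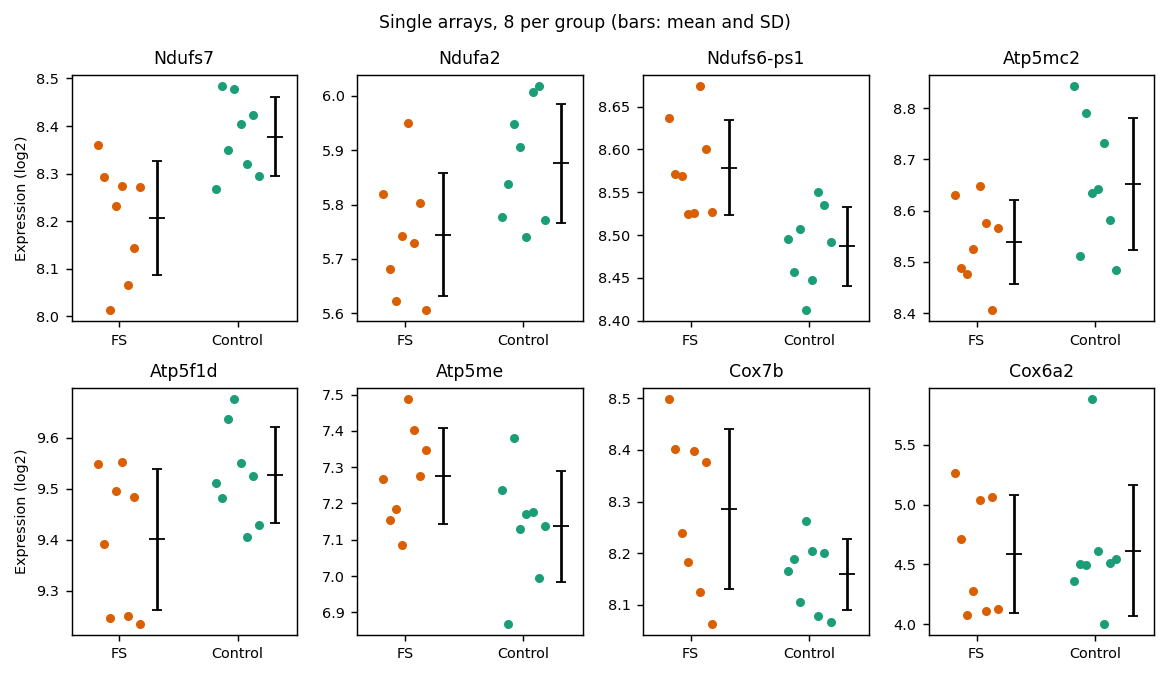
Log2 expression on each of the 16 arrays for 8 members, FS left and Control right in every panel. Points are arrays, and bars show the mean and SD (n = 8 per group). The groups overlap in each panel. Vertical axes differ between panels, and Cox6a2 spans 4.01 to 5.88.

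Complex II, succinate dehydrogenase, links the chain to the tricarboxylic acid cycle. Its catalytic subunits gave differences near zero, -0.0076 ± 0.058 for the flavoprotein gene Sdha and -0.024 ± 0.049 for the iron-sulfur gene Sdhb. Of the membrane anchors, Sdhc differed by 0.0997 ± 0.057 (exact permutation p = 0.0796, n = 8 per group) and Sdhd by 0.024 ± 0.066. Sdhc values reached 8.49 in both groups, with medians of 8.36 in FS and 8.24 in Control arrays.

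Complex III, which passes electrons from ubiquinol to cytochrome c, had 4 negative and 4 positive differences with a median of -0.0058 (0.012 with centred arrays). The lowest were Uqcrfs1, the Rieske iron-sulfur protein, at -0.10 ± 0.061 and the core protein gene Uqcrc1 at -0.087 ± 0.051. The highest were the small subunits Uqcrb at 0.064 ± 0.074 and Uqcrq at 0.049 ± 0.053. Cycs, the carrier, had FS values between 8.63 and 8.82 and Control values between 8.54 and 8.91, and a difference of -0.011 ± 0.059. Its 3 tested probe sets differed by -0.011, -0.0099 and -0.024. Cyc1, which encodes the cytochrome c1 subunit of complex III but lies outside the naming rule, had a larger difference than any member. It averaged 7.85 in FS and 8.07 in Control arrays, a difference of -0.22 ± 0.068 (SE). The adjusted p was 0.501 in limma's test across all probe sets. All of its FS values lay under the Control mean.

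Complex IV, cytochrome c oxidase, had 8 positive and 6 negative differences among 14 genes, Ndufa4 included, which was named for complex I and is a complex IV subunit. The median was 0.013 (0.031 with centred arrays, where 4 of 14 were negative). Cox7b, a small subunit, had the highest difference at 0.13 ± 0.062 (exact permutation p = 0.0542, n = 8 per group), and its values ran between 8.06 and 8.50 in FS arrays and between 8.07 and 8.26 in Control arrays. The FS arrays thus spread over the whole Control range and above it, with 4 of 8 above the highest Control value. Cox7c lay at the other end with -0.054 ± 0.068, followed by Cox5a with -0.036 ± 0.056. Ndufa4 differed by 0.040 ± 0.049.

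Several complex IV subunits come in isoforms encoded by separate genes. The general isoforms had differences near zero, and so did Cox5b, Cox6c and Cox7a2l, which are not general isoforms of this kind. The regulatory subunit gene Cox4i1 gave -0.022 ± 0.047, with FS values between 9.11 and 9.30 and Control values between 9.10 and 9.40. Cox5b, Cox6a1, Cox6b1, Cox7a2 and Cox7a2l had differences between 0.019 and 0.030, Cox8a gave 0.0066 ± 0.044 and Cox6c gave -0.013 ± 0.043. Of the tissue-restricted isoforms, Cox4i2, the isoform known from lung, had a mean of 3.13, below the filter, Cox8b and Cox8c were below it too, and Cox6a2 and Cox6b2 passed it.

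Cox6a2, the heart and muscle isoform, which in mouse brain is also found in parvalbumin interneurons, varied more between arrays than any other member. Its log2 values in FS replicates 1 to 8 were 5.26, 4.71, 4.08, 4.28, 5.04, 4.12, 5.07 and 4.13. In Control replicates 1 to 8 they were 4.36, 4.51, 4.50, 5.88, 4.61, 4.01, 4.52 and 4.54. The difference between groups was -0.030 ± 0.23, with a 95% interval between -0.52 and 0.46, so for this gene the arrays allow a sizeable difference in either direction. Cox6b2, known as the testis isoform, ranged between 4.60 and 5.24 in FS arrays and between 4.47 and 5.45 in Control arrays. Its difference was -9.5e-05 ± 0.13, and its highest values were those of replicate 1 of each group.

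ATP synthase had 10 negative and 8 positive differences, with a median of -0.0033, and held genes at both ends of the range. With centred arrays 6 of 18 were negative and the median was 0.015. Atp5f1d encodes the delta subunit of the central stalk under the catalytic head. Its values were 9.24 at the lowest, 9.44 at the median and 9.55 at the highest in FS arrays, against 9.41, 9.52 and 9.68 in Control arrays. In 4 of 8 FS arrays it was below every Control array, and the others lay among the Control values. The difference was -0.13 ± 0.061 (exact permutation p = 0.0541, n = 8 per group). The other 4 genes of the catalytic F1 part, Atp5f1a, Atp5f1b, Atp5f1c and Atp5f1e, had differences between -0.011 and 0.014.

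The membrane ring of subunit c is encoded by Atp5mc1, Atp5mc2 and Atp5mc3, which make the same mature protein with different import sequences. Atp5mc2 had the lowest difference of these, -0.11 ± 0.057, with a 95% interval between -0.23 and 0.0080 (exact permutation p = 0.0566, n = 8 per group). In 8 of 8 FS arrays it lay under the Control mean. Its values were 8.41, 8.55 and 8.65 (lowest, median, highest) in FS arrays and 8.48, 8.64 and 8.84 in Control arrays. Atp5mc1 gave -0.0034 ± 0.054 and Atp5mc3 -0.0031 ± 0.047, and differences between the 3 genes were not tested.

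At the positive end was Atp5me, subunit e of the membrane part, which takes part in the dimerisation of the enzyme. It had 7.09, 7.27 and 7.49 in FS arrays and 6.87, 7.15 and 7.38 in Control arrays, and 7 of 8 FS arrays were above the Control mean. The difference was 0.14 ± 0.071 (exact permutation p = 0.0727, n = 8 per group). Atp5mk, a further small membrane subunit, differed by 0.045 ± 0.084. Atp5if1, the inhibitor that stops ATP synthase from running in reverse, had a difference of -0.041 ± 0.040. Its FS values were closely grouped, between 10.29 and 10.35, against 10.26 to 10.49 in Control arrays.

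Each set of members with the same motif in the promoter window held differences of both signs, also with centred arrays. Among 20 members with an ETS/GABP match 8 differences were negative and 12 positive (median 0.0070). The 17 with a YY1 match split into 7 and 10 (0.0066), and the 26 with SP1 into 11 and 15 (0.0070). Of 12 members with the relaxed NRF1 motif 10 were negative, with a median of -0.030, while 14 of the 19 members with none of the motifs were negative as well, with a median of -0.019. With centred arrays the negative counts were 6 of 12 for relaxed NRF1, 10 of 19 for no motif, 6 of 20 for ETS/GABP, 7 of 17 for YY1 and 9 of 26 for SP1. The 4 exact NRF1 matches were in Atp5mc2 (-0.11), Ndufa11 (-0.085), Atp5po (-0.050) and Atp5me (0.14). With centred arrays 3 of these 4 were negative (median -0.050). Over all 80 members 57.5% were negative, and 40% with centred arrays.

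On single arrays the subunit genes moved more between rats of the same group than between groups. The mean deviation of the 80 members from their own 16-array means was 0.071, -0.056, -0.037, 0.0049, 0.039, -0.031, 0.0081 and -0.047 in FS replicates 1 to 8. In Control replicates 1 to 8 it was -0.025, -0.010, 0.10, 0.082, 0.016, -0.016, 0.014 and -0.12. Both extremes were thus Control arrays. Control replicate 3 had 71 of 80 members above their own mean and Control replicate 8 only 9, while FS arrays had between 19 (replicate 2) and 63 (replicate 1). The group means of this deviation were -0.0058 (SD 0.045) in FS and 0.0058 (SD 0.068) in Control arrays. FS replicates 1 and 5 and Control replicates 3 and 4 were above zero in each of the plotted subunit classes, and FS replicates 2 and 8 and Control replicate 8 were below zero in each.

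**Figure D3:**
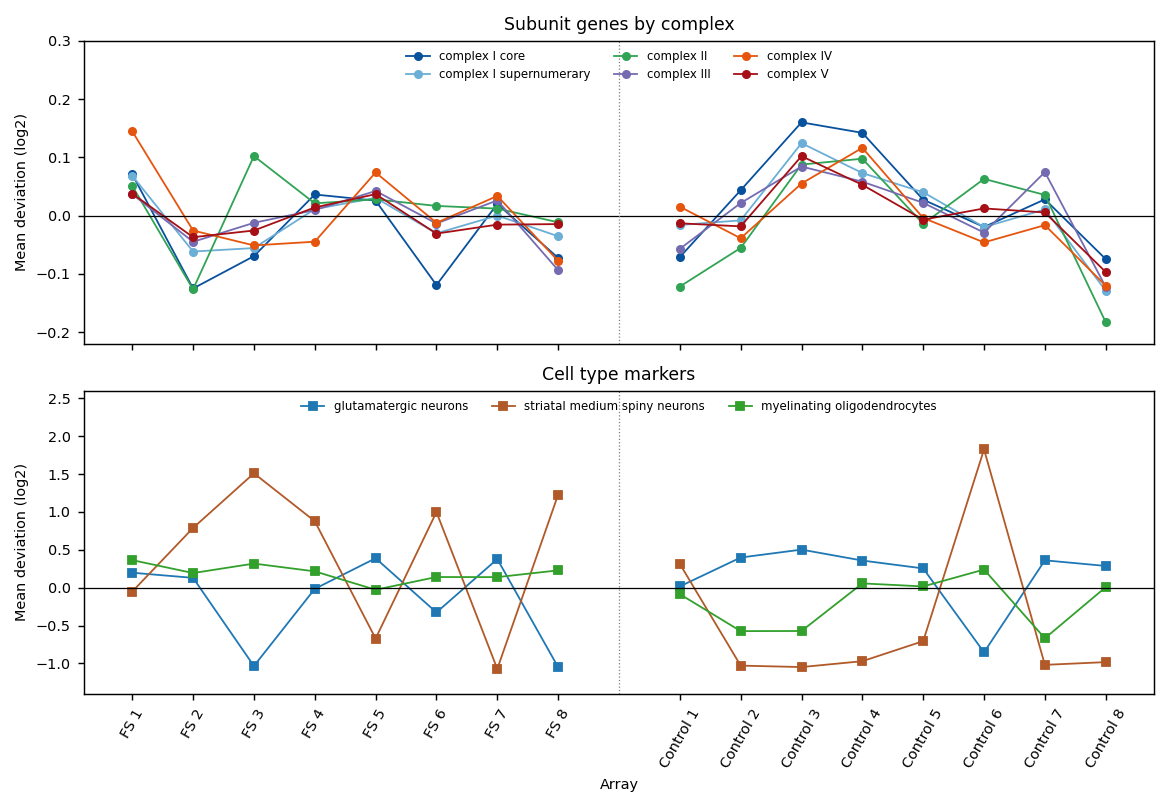
Mean deviation (log2, vertical axis) of subunit classes (upper panel) and of cell type marker lists (lower panel) from each gene's 16-array mean, on each array, FS replicates left and Control replicates right. Lines only join points of one list, since replicates have no order. Subunit classes lie between -0.18 and 0.16 in both groups, while the striatal marker list spans -1.07 to 1.83.

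Lists of cell type markers were read on the same arrays, and 0 of their genes passed after adjustment. Before adjustment, 9 of 9 myelin and 2 of 10 striatal markers passed 0.05 in limma, all with a positive difference. Over all tested probe sets 3.65% did so, and none of the other markers passed in either direction. The glutamatergic marker Slc17a7 was at 10.51 in FS and 10.74 in Control arrays, as in cortical tissue, and all 7 measured glutamatergic markers had negative differences (median -0.34). All 10 measured striatal medium spiny neuron markers had positive ones (median 0.94), with list deviations between -1.07 and 1.51 in FS arrays and between -1.05 and 1.83 in Control arrays. All 9 myelin markers were positive too (median 0.40), between -0.027 and 0.36 in FS and between -0.67 and 0.24 in Control arrays. Medians of the astrocyte (0.059, 4 of 5 positive), microglia (0.014, 4 of 6) and endothelium lists (0.0020, 2 of 4) were near zero. Those of the meningeal fibroblast (0.42, 5 of 5) and smooth muscle lists (0.68, 2 of 2) were larger but depended on few arrays. Smooth muscle deviations were 1.81 and 2.46 in FS replicates 3 and 6, while their median was -0.15 in FS and -0.45 in Control arrays. Without FS replicate 3 and Control replicate 6 the medians were 0.11 for the meningeal and 0.45 for the smooth muscle list. The list chosen for parvalbumin interneurons had 4 of 6 positive (median 0.20), namely Lhx6, Gad1, Gad2 and Slc32a1, between 0.17 and 0.47. Kcnc1 (-0.013 ± 0.11) and Pvalb itself (-0.31 ± 0.26) were negative, so the list median describes neither Pvalb nor parvalbumin interneurons as such. With the striatal deviation as a covariate, 3 of the 6 were positive and the median was 0.031. In bulk tissue, fewer cells of a type and less RNA per cell cannot be told apart. The 5 lowest Cox6a2 values were on the 5 arrays with the highest striatal deviation, FS replicates 3, 4, 6 and 8 and Control replicate 6, and with that deviation as a covariate the Cox6a2 difference was 0.29 ± 0.19.

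With the striatal deviation as a covariate, 32 of 80 members were negative (median 0.0087), against 50.3% of all tested probe sets. With the myelin deviation as a covariate 26 were negative (median 0.025), against 48.8%. The difference of Ndufs7 was -0.13 ± 0.059 with the first and -0.14 ± 0.072 with the second, and that of Ndufs6-ps1 was 0.082 ± 0.044 and 0.094 ± 0.051. Atp5f1d was more affected, with -0.055 ± 0.057 under the striatal covariate, and Ndufa2 gave -0.078 ± 0.074 under the myelin covariate. Without Control replicate 6 and FS replicate 3, both high in striatal markers, 42 of 80 members were negative (median -0.0049), against 57.7% of all tested probe sets. Leaving these arrays out did not lower the striatal difference. The median of the striatal list was then 1.13, against 0.94 with all arrays, and all 10 markers stayed positive.

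Genes that build or feed the chain were set beside the subunits. Of 34 assembly factor genes, whose products put the complexes together, 27 had negative differences (median -0.046), against 57.5% of all tested probe sets. In this list 4 passed an unadjusted 0.05, all negative: Cox14 (-0.21 ± 0.076), Uqcc6 (-0.20 ± 0.063), Ecsit (-0.19 ± 0.069) and Foxred1 (-0.15 ± 0.051). Over all tested probe sets 5.67% passed with a negative difference, and in this list 0 passed after adjustment. The smallest adjusted p of the list was 0.501 in limma's test across all probe sets. The highest was Cox20, with 0.12. With centred arrays 23 of 34 were negative, and with the striatal covariate 18, against 50.2% and 50.3% of all tested probe sets.

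Glycolytic enzymes, which supply pyruvate, had negative differences in 14 of 14 measured genes, against 57.5% of all tested probe sets, with a median of -0.095. Pfkm, the muscle-type phosphofructokinase, averaged 8.49 in FS and 8.69 in Control arrays, a difference of -0.20 ± 0.052. Tpi1 (-0.18 ± 0.063), Eno1 (-0.13 ± 0.051) and Gpi (-0.10 ± 0.048) also passed the unadjusted threshold, which makes 4 of 14 where 5.67% of all tested probe sets passed with a negative difference. Ldhb lay at the upper end with -0.0092. None passed after adjustment (the smallest adjusted limma p was 0.495, for Pfkm). With centred arrays 12 of 14 were negative (median -0.078), against 50.2% of all, and with the striatal covariate 12 of 14 (median -0.039). The 9 genes of pyruvate entry had 7 negative differences (median -0.060), between -0.14 for the kinase gene Pdk2 and 0.015 for the carrier gene Mpc1. With centred arrays 5 of 9 were negative, and with the striatal covariate 4 of 9.

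The 10 tricarboxylic acid cycle genes had 6 negative differences (median -0.033), of which Mdh2 passed the unadjusted threshold with -0.13 ± 0.052, and the highest was Suclg2 with 0.10. Of 14 further genes outside the rule, of electron transfer and of inner membrane carriers, 9 were negative (median -0.016), between Cyc1 and Etfa (0.073). Of these 14 only Cyc1 passed the unadjusted threshold, and no gene of either list passed after adjustment. With centred arrays 5 of 10 and 6 of 14 were negative. With the striatal covariate 4 of 10 and 6 of 14 were negative, with medians of 0.038 and 0.019. Whether any of these lists differed from the subunit genes was not tested.

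**Figure D4:**
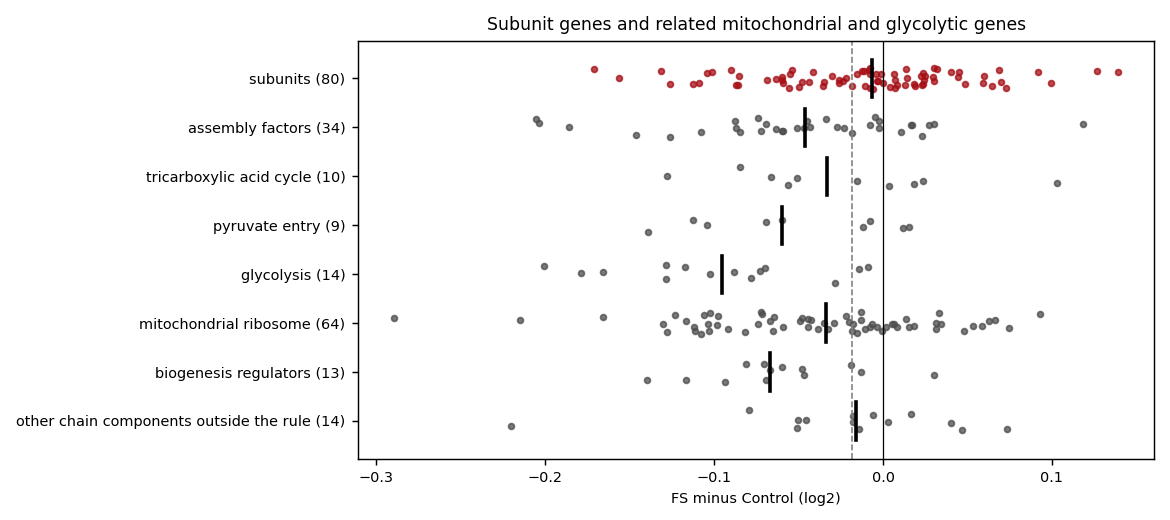
FS minus Control (log2, horizontal axis) for the 80 subunit genes and for 7 related lists, with the number of genes in parentheses. Points are genes, thick bars list medians, and the dashed line is the median over all tested probe sets (-0.018). The median of the subunits is -0.0067, that of glycolysis -0.095.

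The 10 members below the filter on low signals were Atp5mgl3, Atp5mgl4, Cox4i2, Cox6c-ps1, Cox8b, Cox8c, Ndufb11b, Ndufb4, Ndufb4-ps1 and Ndufb4l3, with means between 2.38 and 3.60. The members nearest to the limit on its upper side were Atp5mc1l2 (4.13), Ndufb4l1 (4.29) and Cox6a2 (4.60), and the nearest on its lower side were Ndufb4-ps1 (3.60) and Cox6c-ps1 (3.31). Several of these are copies or pseudogenes of other members, whose signals may overlap with those of the main gene.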

How the data were processed

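Total RNA of 16 PFC samples was measured on Affymetrix Rat Gene 1.0 ST arrays. The deposited values are log2 expression, which the authors obtained by RMA with the R package oligo (version 1.58.0): background correction, quantile normalisation over the arrays and probe set summary. Groups and replicate numbers came from the sample labels, and every array column was used. Of 29214 probe sets, 18644 had 1 gene symbol in the platform annotation, 962 several and 9608 none. The minimum of 4 in the authors' methods was applied to the mean over the 16 arrays, which left 11352 probe sets of 10423 genes. The probe set with the highest mean stood for a gene. All 80 members matched the RefSeq gene table (GRCr8) by gene ID with an unaltered symbol. Promoter windows were taken from RefSeq for the same build.

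FS and Control arrays were compared in limma (version 3.58.1, R version 4.3.3, lmFit and eBayes, group only) with Benjamini-Hochberg adjustment over all tested probe sets. The procedure was run on simulated data with independent probe sets and added shifts larger than any member difference. That run does not cover correlated genes or shifts as small as those of the members. Exact two-sided permutation p-values of single genes run over all 12870 ways to split the 16 arrays into 8 and 8, are not adjusted, and can be no smaller than 0.000155. The p-values measure the spread between labelled arrays, and the number of arrays limits the precision. Any pair of arrays correlated at 0.981 or more. Within each class the 2 lowest and 2 highest differences are named, with every member at an unadjusted p under 0.05, the isoform families, and the extremes of each related list. Other members, Cyc1 and the further list genes under that threshold were named after their values were seen. Members, lists and the naming rule were chosen with earlier results of these data known. Ndufa4 was counted with complex IV.

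Alternatives were other filters, 1 probe set per gene or the mean of a member's probe sets, centring or quantile normalisation of the tested probe sets, a trended robust prior, array weights, the replicate number as a block, the striatal or the myelin marker deviation as a covariate, and leaving out arrays.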

Additional observations from a re-analysis of the deposited data

Results flagged for a closer look

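In the 86 groups examined, each of 8 arrays for the named members and the mean deviations of the subunit classes, 2 held an array far from the others, where about 1 in 20 groups is picked out by chance. Cox6b2 in FS replicate 1 was at 5.24, with the nearest FS array at 4.81 and the lowest at 4.60, so that the gap took a share of 0.668 of the range. Cox6a2 in Control replicate 4 was at 5.88, with the nearest Control array at 4.61 and the lowest at 4.01, a share of 0.677. Without FS replicate 1 the difference of Cox6b2 was -0.068, and without Control replicate 4 that of Cox6a2 was 0.15. The cause of either value was not tested.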

How the results depend on the processing

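Over 30 alternatives, 16 of which left out 1 array, no member had an adjusted p under 0.05. The smallest adjusted p of a named member in any of them was 0.219. Of 1042 values of the 36 named members, 956 kept their sign and 86 did not, and 21 members, Ndufs7, Ndufa2 and Ndufs6-ps1 among them, kept it throughout. Members higher at an unadjusted 0.05 numbered 1, and became 3 with no filter on low values, 5 with centred arrays, 4 with quantile normalisation, 4 with array weights and 0 with the myelin covariate. Members lower numbered 2, and became 0 with the myelin covariate. The shares of all probe sets called lower or higher were not counted in the alternatives. The member counts given here, also those with arrays left out, thus have no background by direction. With no filter on low values, 1468 of 18644 probe sets passed an unadjusted 0.05 in either direction. Negative differences numbered 46, and became 32 with centred arrays, quantile normalisation or the striatal covariate and 26 with the myelin covariate. Leaving out 1 array gave 0 to 4 members higher, 1 to 5 members lower and 34 (without Control replicate 3) to 55 (without Control replicate 8) negative differences. The median over the members then ran from -0.019 to 0.0070, with the sign turned in 5 of 16 cases, and that of complex I from -0.047 to -0.0019. The medians of complex II (-0.025 to 0.032), III (-0.026 to 0.0049), IV (-0.0081 to 0.026) and V (-0.018 to 0.010) each took both signs. The lower count was 5 without FS replicate 5, 4 without FS replicate 1, Control replicate 1 or Control replicate 8, and 1 without FS replicates 2, 3, 6 or 8 or Control replicates 3, 4 or 7. The higher count was 4 without FS replicate 2, 3 without FS replicate 4, 2 without FS replicate 8, Control replicate 3 or Control replicate 6, and 0 without FS replicate 1 or Control replicate 5. Same-numbered FS and Control arrays deviated together for some numbers only (correlations of -0.31 to 0.49, own number best in 2 of 8). Those were numbers 6 (0.47) and 7 (0.49). The labels do not say that a number marks a shared batch or day, so the numbers were not taken as pairs. With the replicate block, 2 members were higher, and 1242 of all probe sets passed an unadjusted 0.05 against 1058 without it.

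The sign of small differences depended on the setting. Centred arrays gave 0.0093 for Ndufs1, 0.010 for Sdha, 0.018 for Cox6b2, 0.0051 for Cox6c, 0.014 for Atp5mc1 and 0.015 for Atp5mc3. Quantile normalisation gave 0.0046 for Ndufs1, 0.013 for Sdha, 0.0051 for Cox4i1, 0.00072 for Cox6b2, 0.0030 for Cox6c, 0.015 for Atp5mc1 and 0.015 for Atp5mc3. Array weights gave 0.0012 for Sdha, 0.026 for Cox6a2, 0.11 for Cox6b2 and 0.0020 for Atp5mc3. The striatal covariate gave 0.040 for Ndufs1, 0.012 for Sdhb, 0.025 for Sdha, 0.0023 for Cox5a, 0.0095 for Cox4i1, 0.29 for Cox6a2, 0.0084 for Atp5mc1 and 0.0054 for Atp5mc3. The myelin covariate gave 0.051 for Ndufs1, 0.0083 for Sdhb, 0.025 for Sdha, 0.019 for Cox5a, 0.040 for Cox4i1, 0.0096 for Cox6c and 0.0028 for Atp5mc3. Without Control replicate 6 and FS replicate 3 the values were 0.043 for Cox6b2, 0.025 for Atp5mc1 and 0.013 for Atp5mc3, and the mean of its probe sets gave -0.0014 for Ndufc2. Leaving out 1 array gave -0.030 to 0.019 for Atp5mc1, -0.027 to 0.012 for Atp5mc3, -0.039 to 0.0041 for Cox4i1, -0.0089 to 0.038 for Cox5b, -0.13 to 0.15 for Cox6a2, -0.068 to 0.098 for Cox6b2, -0.032 to 0.0076 for Cox6c, -0.0050 to 0.046 for Cox7a2l, -0.0094 to 0.021 for Cox8a, -0.048 to 0.019 for Ndufs1, -0.038 to 0.013 for Sdha, -0.039 to 0.0031 for Sdhb and -0.016 to 0.050 for Sdhd. The cause of these shifts was not tested. Precision was lowest for Cox6a2 and Cox6b2, with SEs of 0.23 and 0.13 against a median of 0.056 over the members.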

Other observations

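Genes that maintain mitochondria were also measured. Of 64 mitochondrial ribosomal protein genes, whose products translate the subunits encoded in the mitochondrial genome, 46 had negative differences (median -0.034), with Mrpl4 lowest at -0.29 ± 0.12 and Mrpl50 highest at 0.093. Of 13 regulators of mitochondrial biogenesis and DNA maintenance, 12 were negative (median -0.067). The lowest of these was Esrra, an orphan nuclear receptor that acts with PGC-1 coactivators, with 4.74 in FS and 4.88 in Control arrays (-0.14 ± 0.077), and the highest was Tfb1m at 0.030. Ppargc1a, which encodes the coactivator PGC-1alpha, averaged 8.23 in FS and 8.25 in Control arrays (-0.013 ± 0.047), and Nrf1 averaged 5.42 and 5.44 (-0.019 ± 0.066). With centred arrays 38 of the 64 ribosomal genes and 11 of the 13 regulators were negative, and with the striatal covariate 35 and 8. With the myelin covariate the counts were 33 and 10, with medians of -0.00017 and -0.039. Of all tested probe sets 57.5% were negative in the main fit. That share was 50.2% with centred arrays, 50.3% with the striatal and 48.8% with the myelin covariate. In limma, 0 of these genes passed after adjustment, and 3 ribosomal genes and 0 regulators passed an unadjusted 0.05, where 9.32% of all tested probe sets passed in either direction and 5.67% with a negative difference.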
